A study of Mus musculus with 6 samples.

Results

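The Hes and Hey genes encode repressors of the basic helix-loop-helix (bHLH) class, and the Id genes encode related helix-loop-helix proteins that lack the basic region. Of these genes, 10 were followed in RNAseq data of mouse cells sorted as neural crest cells (NCCs). They are Hes1, Hes5, Hes6, Hey1, Hey2, Heyl, Id1, Id2, Id3 and Id4, chosen by name from the 46983 genes of the deposited count table, and all 10 were found by Ensembl identifier. RNAseq was performed at E11.25 on GFP+ cells sorted as NCCs from control embryos (3 samples) and from embryos deficient in BAF155 and BAF170 (3 samples). BAF155 and BAF170 are core subunits of the BAF chromatin remodeling complex, encoded by Smarcc1 and Smarcc2. All samples carried a Wnt1 Cre/+ allele and a Rosa26 mTmG/+ allele, a reporter that turns on membrane GFP after Cre recombination. The controls were flox/+ at BAF155 and flox/+ at BAF170, and the deficient samples were flox/flox at both genes. Cre thus removes a single copy of each gene in control cells, and no group without any deletion was compared. Wnt1 Cre is active in the dorsal neural tube, from which the neural crest arises, so GFP marks neural tube cells as well as NCCs.

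Hes and Hey proteins are the classic targets of Notch signaling. When a ligand binds a Notch receptor, the receptor's intracellular domain joins the DNA-binding protein Rbpj in the nucleus and turns on Hes and Hey genes, whose products recruit Groucho/TLE corepressors and hold back differentiation genes. Id proteins have a helix-loop-helix domain but no DNA-binding basic region, so they bind E proteins and keep them from pairing with tissue-specific bHLH activators. Id genes are well known targets of BMP signaling through Smad proteins. In neural progenitors, Hes1 and Hes5 are known for holding back neuronal differentiation.

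The sequence before the transcription start is shown for Hes5, Hey2 and Id4, the members that have a promoter window in RefSeq (GRCm38.p6) among those whose deficient libraries all lay below all control libraries. Capitals mark the letters GTGGGAA or their reverse complement TTCCCAC, a core to which Rbpj is known to bind. The windows hold the 250 bases before the RefSeq start, read 5′ to 3′ on the gene's strand, at chr4:154960673-154960922 (plus strand) for Hes5, chr10:30842784-30843033 (minus strand) for Hey2 and chr13:48260866-48261115 (plus strand) for Id4.
Hes5: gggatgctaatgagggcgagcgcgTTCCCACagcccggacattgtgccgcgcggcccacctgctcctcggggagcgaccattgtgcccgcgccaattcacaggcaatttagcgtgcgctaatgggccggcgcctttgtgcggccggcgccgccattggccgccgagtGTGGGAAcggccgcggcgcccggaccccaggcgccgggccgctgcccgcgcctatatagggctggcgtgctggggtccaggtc
Hey2: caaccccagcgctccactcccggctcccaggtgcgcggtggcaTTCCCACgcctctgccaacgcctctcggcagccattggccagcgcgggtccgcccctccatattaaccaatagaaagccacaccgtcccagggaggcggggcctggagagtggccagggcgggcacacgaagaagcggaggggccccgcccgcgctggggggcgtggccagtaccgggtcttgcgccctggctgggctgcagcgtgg
Id4: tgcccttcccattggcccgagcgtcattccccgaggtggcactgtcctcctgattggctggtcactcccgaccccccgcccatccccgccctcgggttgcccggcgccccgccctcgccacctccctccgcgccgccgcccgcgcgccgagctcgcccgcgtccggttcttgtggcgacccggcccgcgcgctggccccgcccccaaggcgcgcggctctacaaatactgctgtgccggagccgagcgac
Read along the windows as printed, the Hes5 window held GTGGGAA with its first base 83 bases before the start and TTCCCAC with its first base 226 bases before the start. The Hey2 window held TTCCCAC once, with the first base 207 bases before the start, so GTGGGAA lay on the strand opposite to the gene. None of the windows of Id2, Id3, Id4 or Hes6 held either form. Over all 32851 promoter windows of the same length, 5.42% held this motif on either strand. CACGTG and CACGCG, sites to which Hes and Hey proteins can bind, were found in 6.02% and 7.62% of all windows on either strand and in none of the windows of the 6 members that have one. The match of letters in a window is a description of sequence and was not tested for binding. Hes1, Hey1, Heyl and Id1 had no window in the table.

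Counts per library ran from 8191219 to 19808620, with all deficient libraries deeper than the deepest control. Levels are given as CPM, counts scaled to library sizes that were normalized by TMM, and the members are ranked by level as CPM per kilobase of exon. Sums of markers, bounds on CPM and ratios of counts were not corrected for exon length. Of the 10 members, 9 passed the filter on low counts and Hey2 did not. Following the thresholds in the study's methods, genes counted as called when the adjusted p (edgeR, Benjamini-Hochberg) was 0.1 or lower, the log2 fold change was 0.58 or more in size and the mean reached 2 CPM. The study applied its thresholds with limma, so the calls given here are not the study's own. Smarcc1 had 42.1, 55.0 and 35.1 CPM in the control libraries (replicates 1 to 3, the order kept throughout), against 29.4, 26.4 and 24.5 CPM in the deficient ones, and was called lower (log2 fold change −0.71, standard error 0.16, edgeR adjusted p = 0.0676). Smarcc2 differed by −0.11 on the log2 scale (standard error 0.06, edgeR adjusted p = 0.251). Counts per gene can include transcripts that lost only floxed exons, and the part of such transcripts in these values was not tested. Crest markers were present in all libraries, but at far lower sums than markers of macrophages, which are no neural crest cells. The 12 macrophage markers summed to between 11200 and 13100 CPM in the controls and between 13100 and 14300 CPM in the deficient libraries. The 53 markers of mesenchymal, sensory, autonomic and glial crest and of neural tube summed to 430, 604 and 338 CPM in the control libraries, against 302, 234 and 225 CPM in the deficient ones. They are called embryonic markers below, a name that stands for crest and neural tube only, since all libraries came from embryos. Sox10, a defining factor of migrating and glial crest named after its values were seen, measured 4.36, 7.76 and 2.22 CPM in the control libraries, against 1.49, 0.855 and 1.19 CPM in the deficient ones. Of the 5 tested glial crest markers only Sox10 was called. Ednrb, the glial crest marker with the highest mean, had 23.4 ± 4.35 CPM in the controls and 23.3 ± 0.95 CPM in the deficient libraries (SD, n = 3 each). No marker of these lists was at 0 in all libraries.

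The members spanned a wide range of levels. Per kilobase of exon, Id2 was highest, at 95.6 CPM per kilobase over the 6 libraries, and Id3 followed at 13.2, Hes6 at 9.10 and Id1 at 8.01. The other 6 members lay far lower, with means of 0.885 for Hes1, 0.849 for Hes5, 0.588 for Hey1, 0.456 for Heyl, 0.280 for Id4 and 0.191 for Hey2. The libraries of Id2 and Id3 did not overlap with those of the next gene in this order, nor did those of Id1 and Hes1. The ranges of Hes6 and Id1 overlapped, and so did those of every neighbouring pair from Hes1 to Hey2. In CPM, 4 members had a mean above 9 and 6 had a mean under 3.

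**Figure D1:**
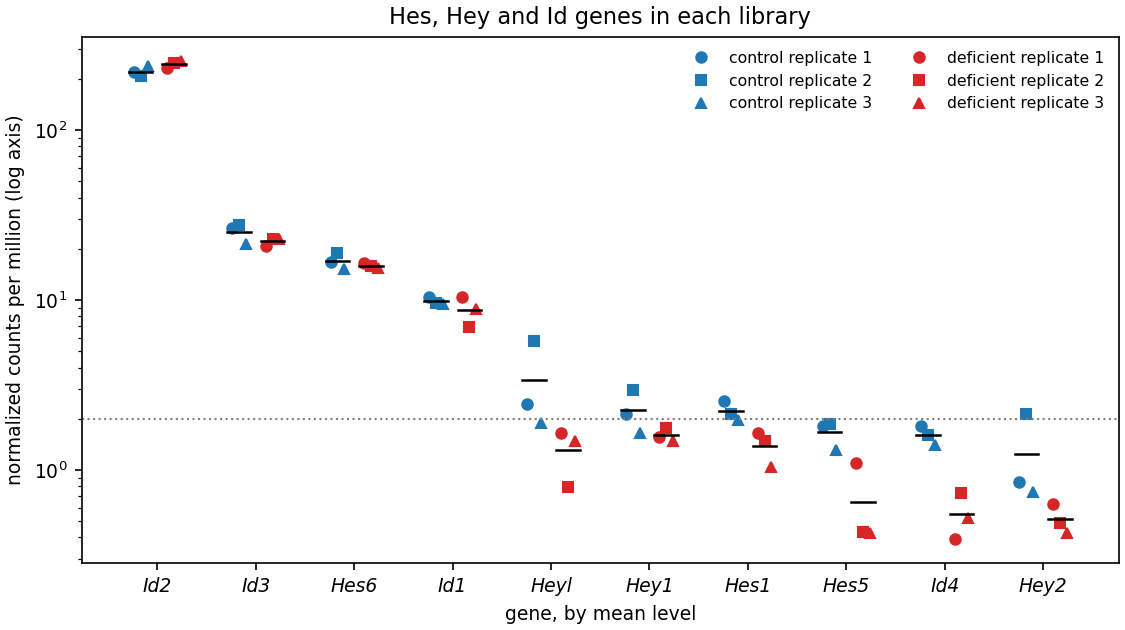
CPM (log axis) of the 10 members in each library, with controls in blue, deficient libraries in red, marker shapes for the replicate number, short black lines for the group means (n = 3) and a dotted line at the 2 CPM threshold. Id2 lies between 207 and 256 CPM, and the red points of Hes1, Hes5, Hey2, Heyl and Id4 all lie below the blue points of the same gene.

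To determine whether the repressors differ between the sorted cells of control and of deficient embryos, the members were read from the fit over all genes. No member was called, lower or higher, where 4.88% of the 13961 tested genes were called lower and 0.0573% higher by edgeR's quasi-likelihood test. Of the 9, Hes1, Hes5, Hey1 and Id4 had means under the 2 CPM that a call needs and could not be called whatever their fold or p. That leaves 5 members that could be called, Hes6, Heyl, Id1, Id2 and Id3, beside 5.78% called lower and 0.0679% called higher of the 11787 tested genes with a mean of at least 2 CPM. At an unadjusted p under 0.05 the test gave 4 of the 9 tested members, where 27.3% of all tested genes had a p of 0.05 or less. DESeq2 called 1 member (Heyl, lower) and limma-voom none. The 5 members Hes1, Hes5, Hey2, Heyl and Id4 had lower values in every deficient library than in any control library, 4 of them among the 9 tested, and no member had higher values in every deficient library. Among all tested genes 16.4% had groups that did not overlap with the deficient values lower and 15.0% with the deficient values higher, and among those with a mean under 3 CPM 23.2% did with the deficient values lower. In bulk RNA, fewer cells of a type and less RNA per cell cannot be told apart.

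Hes1, Hes5 and Hes6 belong to the same family but have different roles. Hes1 and Hes5 are the main Notch effectors of neural progenitors. Hes1 (ENSMUSG00000022528.7, GRCm38 chromosome 16, bases 30064384 to 30067796) measured 2.55, 2.14 and 1.97 CPM in the control libraries, against 1.64, 1.47 and 1.04 CPM in the deficient ones. Every deficient value was below the lowest control value, although the counts behind them were only 16 to 24 per library. The log2 fold change was −0.69 (standard error 0.34, 95% interval −1.43 to 0.04) and missed the threshold (edgeR adjusted p = 0.208), and the mean of 1.80 CPM was under the level for a call. Hes5 (ENSMUSG00000048001.7, chromosome 4, bases 154960923 to 154962371), whose window carries the Rbpj core in both orientations, measured 1.81, 1.87 and 1.31 CPM in the control libraries, against 1.10, 0.428 and 0.427 CPM in the deficient ones. Deficient replicate 1 stood nearer to the controls than deficient replicates 2 and 3, and the counts were 14 to 17 in the controls and 14, 7 and 9 in the deficient libraries. The log2 fold change was −1.39 (standard error 0.48, 95% interval −2.44 to −0.35), with an edgeR adjusted p of 0.103 that just missed the threshold, and the mean of 1.16 CPM was also under the level for a call.

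Hes6, which unlike its relatives counters Hes1 and favors neuronal differentiation, was the best covered of the Hes genes. Hes6 (ENSMUSG00000067071.8, chromosome 1, bases 91411483 to 91414038) measured 16.8, 18.9 and 15.3 CPM in the control libraries, against 16.4, 15.8 and 15.5 CPM in the deficient ones. The groups overlapped, and the deficient libraries lay within 1 CPM of each other. Its log2 fold change was −0.09 (standard error 0.11, edgeR adjusted p = 0.637), and the 95% interval of −0.34 to 0.16 does not reach the 0.58 of a call in either direction. Whether the fold change of Hes6 differs from those of Hes1 and Hes5 was not tested.

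The Hey genes were all low. Hey proteins are Notch effectors known above all from the heart, the arteries and their smooth muscle, to which cardiac NCCs contribute. Heyl (ENSMUSG00000032744.4, chromosome 4, bases 123233556 to 123249875) measured 2.45, 5.75 and 1.89 CPM in the control libraries, against 1.64, 0.794 and 1.47 CPM in the deficient ones. Control replicate 2 was far above all other libraries, and the remaining controls lay just above the deficient values. The log2 fold change of Heyl was −1.32 (standard error 0.46, 95% interval −2.33 to −0.31, edgeR adjusted p = 0.107), and without control replicate 2 it was −0.73 (edgeR adjusted p = 0.395). Hey1 (ENSMUSG00000040289.8, chromosome 3, bases 8663359 to 8667256) measured 2.13, 2.94 and 1.64 CPM in the control libraries, against 1.57, 1.77 and 1.47 CPM in the deficient ones. Deficient replicate 2 lay above control replicate 3, so the groups overlapped, and its log2 fold change, −0.45 (standard error 0.33), missed the threshold (edgeR adjusted p = 0.406), with a mean of 1.92 CPM that was also under the level for a call. Without control replicate 2 the log2 fold change of Hey1 was −0.22.

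Hey2 (ENSMUSG00000019789.8, chromosome 10, bases 30832359 to 30842801), whose promoter window is shown above, was the lowest member. It measured 0.851, 2.14 and 0.739 CPM in the control libraries, against 0.627, 0.489 and 0.427 CPM in the deficient ones, from counts of 8, 16 and 9 and of 8, 8 and 9. The groups did not overlap, but the raw counts were 8 or 9 in every library except control replicate 2, in libraries of which the deficient ones were deeper. The exact permutation test over the 6 libraries gave p = 0.1, the smallest that 3 against 3 allow. Hey2 did not pass the filter, and with no filter its log2 fold change was −1.17 (standard error 0.57, edgeR adjusted p = 0.260).

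Control replicate 2, where Heyl, Hey1 and Hey2 were all highest, also had the highest sum of embryonic markers, at 604 CPM. The markers of smooth muscle and pericytes, cells in which Heyl is known to be expressed, summed to between 31.8 and 39.7 CPM in the controls, highest in control replicate 2, and to between 25.6 and 30.2 CPM in the deficient libraries. Of their 6 tested genes 1 was called lower, Pdgfrb, and 2 did not overlap in that direction. The endothelial markers, of cells in which Hey genes are also known to be expressed and which a GFP sort on the Wnt1 Cre lineage should remove, summed to between 182 and 205 CPM in the controls and to between 210 and 223 CPM in the deficient libraries. Kdr alone gave 165 to 203 CPM of these sums. Without Kdr the endothelial markers summed to between 17.1 and 18.9 CPM in the controls and to between 19.2 and 20.9 CPM in the deficient libraries, and Pecam1, a defining marker, lay between 5.17 and 5.98 CPM in all libraries. The part of these cell types in the Hey values was not tested.

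**Figure D2:**
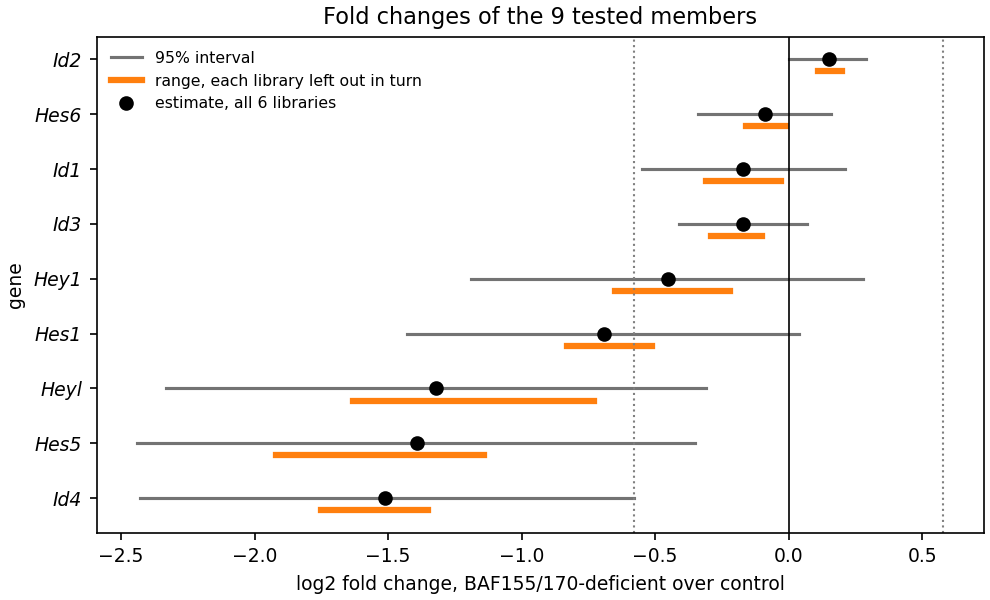
Log2 fold changes (deficient over control) of the 9 tested members from edgeR's quasi-likelihood fit (black points), with their 95% intervals (grey lines), the range of the estimate over the 6 fits that each leave out a library (orange lines) and dotted lines at a change of 0.58 in either direction. The intervals of Hes5, Heyl and Id4 lie below 0, the orange line of Heyl runs from −1.63 to −0.73, and those of Hes6, Id1, Id2 and Id3 stay within 0.58 of 0.

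Of the Id genes, Id4 had the lowest level and the most negative fold change. Id4 is known mainly from neural progenitors. Id4 (ENSMUSG00000021379.1, chromosome 13, bases 48261228 to 48266026) measured 1.81, 1.61 and 1.40 CPM in the control libraries, against 0.392, 0.733 and 0.522 CPM in the deficient ones. No control library came near a deficient one, and the deficient mean was 34.3% of the control mean, from counts of 17, 12 and 17 against 5, 12 and 11. The log2 fold change of −1.51 (standard error 0.42, 95% interval −2.43 to −0.58) passed on the adjusted p alone (edgeR, 0.0794). Of all tested genes, 7.75% passed in this way with a lower value and 4.18% with a higher value, and of those with a mean under 3 CPM 9.48% did with a lower value. Its mean of 1.08 CPM kept it from being called. With a single library left out, the edgeR adjusted p of Id4 was above 0.1 for control replicate 1 (0.250), control replicate 2 (0.233), deficient replicate 1 (0.101), deficient replicate 2 (0.113) and deficient replicate 3 (0.262) but not for control replicate 3, and the log2 fold change lay between −1.75 and −1.35 in all 6 such fits. An annotated antisense gene that overlaps Id4, A330033J07Rik, held 13 counts over all libraries, and Gm20421, antisense to Hes5, held 0. The strand setting of the counting is not given, so the reads of a gene and its antisense partner cannot be told apart.

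Id2 was the only tested member with a positive log2 fold change. Id2 is known from many lineages, innate immune cells among them. Id2 (ENSMUSG00000020644.8, chromosome 12, bases 25093799 to 25097140) measured 219, 207 and 237 CPM in the control libraries, against 232, 248 and 256 CPM in the deficient ones. Control replicate 3 lay above deficient replicate 1, so the groups overlapped. On the log2 scale the fold change was 0.15 (standard error 0.07), which did not pass (edgeR adjusted p = 0.170). The 1154 tested genes with means of 100 to 500 CPM had a median of 0.16 on this scale and quartiles of 0.11 and 0.20, so the value of Id2 lay at the middle of genes of its level. The 12 macrophage markers all had higher means in the deficient libraries, with a median of 0.19 on the log2 scale and none called.

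Id1 and Id3 are the Id genes most closely tied to BMP signaling and to blood vessels. Id1 (ENSMUSG00000042745.9, chromosome 2, bases 152736251 to 152737410) measured 10.4, 9.63 and 9.44 CPM in the control libraries, against 10.4, 6.97 and 8.88 CPM in the deficient ones. Deficient replicate 1 matched the highest control, and the log2 fold change was −0.17 (standard error 0.17, 95% interval −0.55 to 0.21, edgeR adjusted p = 0.559). Id3 (ENSMUSG00000007872.3, chromosome 4, bases 136143497 to 136145755) measured 26.5, 27.7 and 21.2 CPM in the control libraries, against 20.9, 22.7 and 22.9 CPM in the deficient ones. Control replicate 3 lay among the deficient values, and the log2 fold change was −0.17 (standard error 0.11, 95% interval −0.41 to 0.07, edgeR adjusted p = 0.340). Genes with means of 9 to 30 CPM, the range that holds Hes6, Id1 and Id3, had a median of −0.02 on this scale and quartiles of −0.21 and 0.10.

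The median log2 fold change was −0.69 over the 3 Hes genes, −0.88 over the 2 tested Hey genes and −0.17 over the 4 Id genes, against −0.02 over all tested genes. The members with low levels had the more negative fold changes, and so did genes with low levels in the table as a whole. The 3144 tested genes with a mean under 3 CPM had log2 fold changes with a median of −0.35 and quartiles of −0.84 and 0.04, and 72.1% of them were negative, against 52.3% of all tested genes. Hes5, Heyl and Id4 lay beyond the lower of these quartiles, while Hes1 and Hey1 lay between the quartiles. With libraries scaled to 29 embryonic markers in place of TMM, which moved the median of the whole table from −0.02 to 0.83, Hes1, Hes6, Hey1, Id1 and Id3 turned positive and Hes5 (−0.54), Heyl (−0.34) and Id4 (−0.65) stayed negative. Measured from the median of all genes under each scaling, Hes5 lay at −1.37 and −1.37, Id4 at −1.49 and −1.48, Heyl at −1.31 and −1.17 and Hes1 at −0.67 and −0.69. A change of library sizes shifts all genes by a similar amount, so these distances could hardly move and are no separate check.

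**Figure D3:**
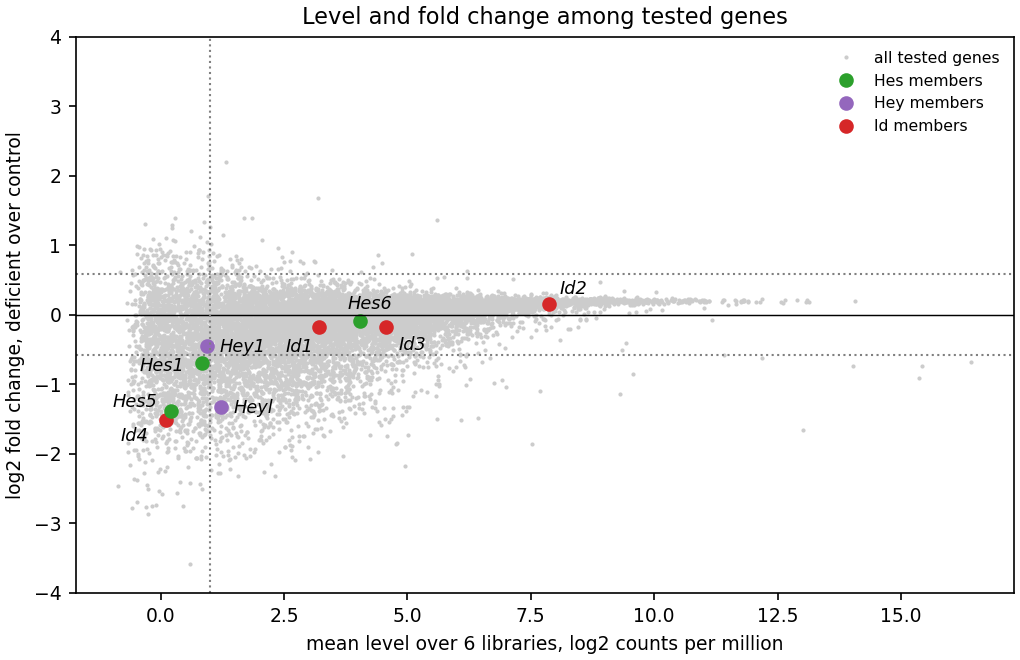
Mean level (log2 CPM over the 6 libraries) against log2 fold change (deficient over control) for all 13961 tested genes in grey, with the tested Hes members in green, Hey members in purple and Id members in red, and dotted lines at the fold and level thresholds of a call. Id4, Hes5 and Heyl lie between −1.51 and −1.32 at low levels, and Id2 lies at 0.15 within the narrow band of abundant genes.

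Ratios of counts within a library do not depend on how libraries are scaled, so the members were also read against the marker sums. These ratios were chosen after the values were seen and are given as descriptions. Id2 had 1.83, 1.85 and 1.81 counts per 100 counts of the 12 macrophage markers in the controls and 1.76, 1.81 and 1.79 in the deficient libraries. The groups did not overlap, with the deficient ratios lower by a small margin (1.79 ± 0.0230 against 1.83 ± 0.0167, SD, n = 3 each), and the nearest libraries of the groups both round to 1.81. Id3 had overlapping groups and a wider spread among the controls, with 0.221, 0.247 and 0.162 counts per 100 macrophage marker counts in the controls and 0.159, 0.165 and 0.160 in the deficient libraries.

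The 6 members with means under 3 CPM were read against the embryonic markers. Together Hes1, Hes5, Hey1, Hey2, Heyl and Id4 summed to 11.6, 16.5 and 8.95 CPM in the control libraries, against 6.97, 5.68 and 5.36 CPM in the deficient ones. Per 100 counts of the 53 embryonic markers they had 2.70, 2.73 and 2.65 counts in the controls and 2.31, 2.42 and 2.39 counts in the deficient libraries. The deficient ratios were all below the control ratios, by a smaller margin than the CPM sums (2.37 ± 0.0596 against 2.69 ± 0.0400, SD, n = 3 each). These ratios rest on 89 to 123 member counts per library. Taken singly, the ratios of Hes1, Hes5, Hey2, Heyl and Id4 overlapped between groups, as for Hes1 with 5.94, 3.55 and 5.83 counts per 1000 embryonic marker counts in the controls and 5.44, 6.26 and 4.65 in the deficient libraries, and for Id4 with 4.21, 2.66 and 4.13 against 1.30, 3.13 and 2.32. Hey1 did not overlap, with 4.95, 4.88 and 4.86 counts per 1000 embryonic marker counts in the controls. Its values in the deficient libraries were higher, at 5.19, 7.56 and 6.55. The marker sum itself had a mean of 457 CPM in the controls and 254 CPM in the deficient libraries. A gene of constant CPM therefore rises in this ratio. With libraries scaled to embryonic markers in place of TMM, Hey1 lay at a log2 fold change of 0.44, below the median of 0.83 over all tested genes. The share of all genes without overlap in this ratio was not tested. The part of the share of crest and neural tube cells in the lower CPM of the 6 members was not tested.

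**Figure D4:**
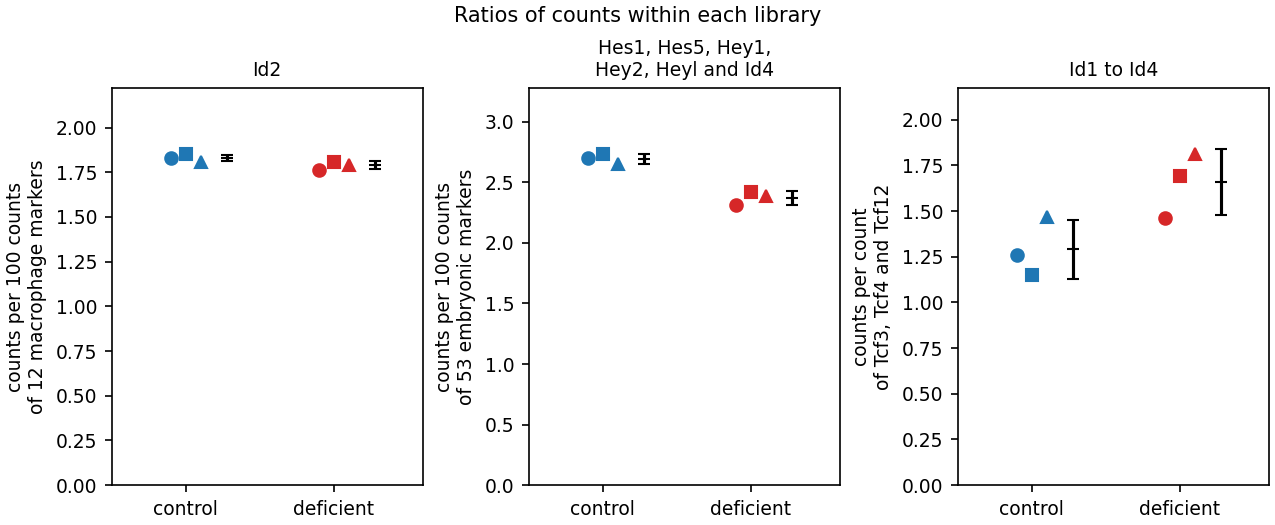
Ratios of counts within each library for control (blue) and deficient (red) libraries, with marker shapes for replicates 1 to 3 (circle, square and triangle) and the group mean ± SD (n = 3) in black. Id2 per 100 macrophage marker counts stays between 1.76 and 1.85, the 6 low members per 100 embryonic marker counts lie at 2.65 to 2.73 in the controls and 2.31 to 2.42 in the deficient libraries, and the Id to E protein ratio overlaps between the groups.

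The genes that act upstream of the Hes and Hey repressors were read from lists. Of 9 Notch receptors and ligands, all tested, 1 was called lower and none higher, and the list median was −0.12 on the log2 scale. The called gene was Dll3, a ligand-like protein that dampens Notch signaling within the cell, and it measured 7.34, 10 and 4.35 CPM in the control libraries, against 3.45, 3.36 and 3.51 CPM in the deficient ones (log2 fold change −1.05, standard error 0.28, edgeR adjusted p = 0.0773). The deficient values of Dll3 lay close together and all below the lowest control. Notch2, a receptor found in many tissues, had 106 ± 3.86 CPM (control mean ± SD, n = 3) and 108 ± 1.04 CPM (deficient, n = 3), with overlap between the groups. None of the 8 tested genes of the Notch transcription complex was called, and their median was −0.10. Rbpj itself had 90.7, 86.8 and 94.5 CPM in the control libraries, against 99.1, 93.8 and 106 CPM in the deficient ones, with a log2 fold change of 0.14 (standard error 0.07). The lowest adjusted p of this list was that of the histone acetyltransferase gene Kat2b (log2 fold change 0.23, edgeR adjusted p = 0.135).

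Of the 15 tested Notch modulators, 3 were called lower and none higher, with a list median of 0.02. Mfng, a Fringe glycosyltransferase that tunes which ligands a Notch receptor answers to, measured 3.40, 6.15 and 3.04 CPM in the control libraries, against 1.72, 1.53 and 1.14 CPM in the deficient ones (log2 fold change −1.51, standard error 0.35, edgeR adjusted p = 0.0624). Numbl, a relative of the Notch inhibitor Numb, had a log2 fold change of −0.72 (edgeR adjusted p = 0.0874), and Dner, a transmembrane protein of neurons, of −1.10 (edgeR adjusted p = 0.0998). All 3 had no overlap between groups, and for all 3 control replicate 2 was highest, as it was for Heyl. Dtx2, a Deltex ubiquitin ligase, was not called (log2 fold change 0.18), but its groups did not overlap either, with the deficient values higher. Among relatives of the members, only Bhlhe40 and Bhlhe41 were tested of the 6 listed, with log2 fold changes of 0.11 (standard error 0.09) and 0.01 (standard error 0.20), and Helt had no count.

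Upstream of the Id genes, 3 of 14 tested BMP receptors and Smads were called lower and none higher, with a list median of −0.41. Bmpr1a, a type I BMP receptor, measured 20.6, 21.0 and 13.4 CPM in the control libraries, against 12.4, 9.71 and 6.93 CPM in the deficient ones (log2 fold change −0.93, standard error 0.24, edgeR adjusted p = 0.0826). The groups of Bmpr1a did not overlap. Smad5, which carries the BMP signal to the nucleus, lay at a log2 fold change of −0.61 (standard error 0.16, edgeR adjusted p = 0.0781), and Acvr2b, a type II receptor of activins and BMPs, of −0.98 (standard error 0.30, edgeR adjusted p = 0.0928). The groups of Acvr2b overlapped, while those of Smad5 did not. Bmpr2 passed on the adjusted p alone at −0.39 (edgeR adjusted p = 0.0771), and Acvrl1, a receptor known from endothelium, passed on the adjusted p alone in the other direction, at 0.22 (edgeR adjusted p = 0.0812). Neither had overlapping groups, with the deficient values lower for Bmpr2 and higher for Acvrl1. Of 8 tested BMP ligands and antagonists, 1 was called lower, Fstl1, a secreted relative of follistatin that binds BMPs. The list median was −0.76, against −0.02 over all tested genes and −0.35 over those with a mean under 3 CPM. Fstl1 measured 23.0, 32.8 and 18.6 CPM in the control libraries, against 14.8, 14.8 and 14.7 CPM in the deficient ones (log2 fold change −0.73, standard error 0.18, edgeR adjusted p = 0.0765).

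Tcf3, Tcf4 and Tcf12 encode the E proteins that Id proteins bind. Tcf3 measured 32.1, 35.2 and 27.2 CPM in the control libraries, against 23.6, 19.9 and 19.0 CPM in the deficient ones and was called lower (log2 fold change −0.59, standard error 0.12, edgeR adjusted p = 0.0483). The groups of Tcf3 did not overlap. Tcf4 (log2 fold change −0.09, standard error 0.06) and Tcf12 (−0.49, standard error 0.20) were not called. The counts of Id1 to Id4 per count of the 3 E protein genes were 1.26, 1.15 and 1.47 in the controls and 1.46, 1.69 and 1.81 in the deficient libraries. Control replicate 3 lay just above deficient replicate 1, so the groups overlapped, and Id2 supplied between 84.2% and 89.1% of the Id counts in every library.

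Of 8 tested tissue-specific bHLH activators, which Id proteins oppose and Hes proteins repress, all 8 had lower means and 2 were called lower. Their median log2 fold change was −0.91, against −0.02 over all tested genes and −0.35 over those with a mean under 3 CPM. Twist1, a bHLH factor of cranial mesenchyme, measured 9.68, 13.1 and 5.91 CPM in the control libraries, against 4.46, 4.52 and 3.56 CPM in the deficient ones (log2 fold change −1.18, standard error 0.27, edgeR adjusted p = 0.0647). Neurod4, a neuronal factor, lay at a log2 fold change of −1.66 (standard error 0.51, edgeR adjusted p = 0.0919), with 5.48 CPM in control replicate 2 and at most 2.13 CPM in every other library. Twist1 is also in the list of mesenchymal crest markers, of which 8 of 14 tested were called lower. Of the 11 tested Groucho/TLE and other corepressors, 1 was called lower, Tle1 (log2 fold change −0.67, standard error 0.14, edgeR adjusted p = 0.0534), with a list median of −0.20. Tle3, another Groucho/TLE gene, had a log2 fold change of 0.07. The groups of Tle1 and of Tle3 did not overlap, with the deficient values lower for Tle1 and higher for Tle3. In all, 12 genes of these lists were called lower and none was called higher, where 4.88% of all tested genes were called lower and 0.0573% higher. None of the 12 was called without control replicate 1, without control replicate 2 or without deficient replicate 3, and 2 were called without deficient replicate 2, while all 12 kept a negative log2 fold change in each of these fits. Without control replicate 1 edgeR called no gene of the table, and 2547 genes had an unadjusted p under 0.05. Over the whole table it called 61 genes lower without control replicate 2 and 17 lower without deficient replicate 3, with 0 higher in both. Without deficient replicate 2 it called 219 lower and 45 higher, against 681 lower and 8 higher with all 6 libraries. With libraries scaled to the 29 embryonic markers none of the 12 was called and 7 stayed negative. The embryonic marker sums were 457 ± 135 CPM in the controls and 254 ± 42.1 CPM in the deficient libraries (SD, n = 3 each), and their part in these calls was not tested.

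**Figure D5:**
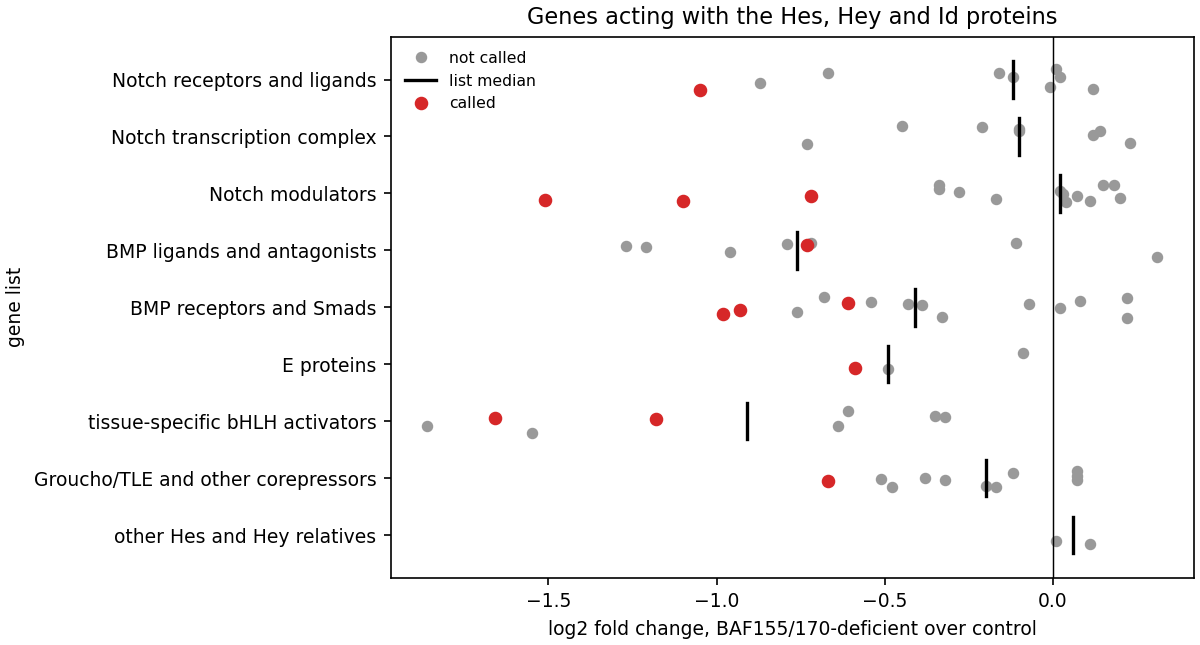
Log2 fold changes (deficient over control) of the tested genes in 9 lists of genes that act with the Hes, Hey and Id proteins, with called genes in red, other genes in grey and black lines at the list medians (vertical spread within a list is only for legibility). The medians run from −0.91 for tissue-specific bHLH activators to 0.06 for other Hes and Hey relatives, and the 12 called genes lie left of 0.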

How the data were processed

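Strand-specific poly(A) libraries were made from GFP+ cells sorted by FACS as NCCs. The authors used STAR to align adapter-trimmed read pairs to GRCm38, and featureCounts to count them per gene. The deposited values are counts per gene without normalization. Annotation release, strand setting and handling of multimapping reads are not given in the sources used here. Per the study's methods the cells came from 3 control and 3 deficient embryos, as many as there are libraries.

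Identifiers were matched without version to GENCODE M21 (46488 of 46983). The test used edgeR 4.0.16 under R 4.3.3 (filterByExpr, minimum count 10 and total 15, TMM, robust quasi-likelihood test, condition as the only term, Benjamini-Hochberg adjustment over 13961 genes). Standard errors come from the F statistic, and exon length is the union of exons. The members, lists and alternatives were chosen with earlier results of these data known. Genes named are the members, Smarcc1 and Smarcc2, from each list up to 5 called genes, the gene with the lowest adjusted p and that with the highest mean CPM (lists of up to 6 genes, all tested genes), and up to 3 markers of the highest mean CPM per list, printed where a result touches them. Sox10, Helt, Gm20421 and A330033J07Rik were picked outside this rule. Alternatives were DESeq2 1.42.0, limma 3.58.1 (voom), other scalings, filters and thresholds, a replicate block and each library left out in turn. The pipeline was tested on simulated counts with large changes in genes of at least 2 CPM, so that test does not cover the low members. Median log2 fold changes of marker lists were 0.51 (neutrophil), −0.24 (erythroid), −1.06 (mesenchymal crest), −1.10 (sensory), −0.80 (autonomic), −0.98 (glial crest), −0.74 (neural tube), 0.12 (endothelial) and −0.31 (smooth muscle and pericyte).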

Additional observations from a re-analysis of the deposited data

How the results depend on the processing

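The count of members called lower, 0 with all 6 libraries, was 1 with limma-voom and sample quality weights, with DESeq2, with library totals in place of TMM and with no filter on low counts (Heyl each time), 1 at an adjusted p of at most 0.1 alone (Id4), and between 0 and 1 with each library left out in turn (1, Heyl, without control replicate 3). It was 0 in the other alternatives. A filter of 2 CPM on the mean gave no value for Hes1, Hes5, Hey1 and Id4. The count of members called higher was 0 in all alternatives but the scaling to 29 embryonic markers, where it was 4 (Hes6, Id1, Id2 and Id3). In that setting 8022 of all 13961 tested genes were called higher. That scaling moved the whole table's median from −0.02 to 0.83 and turned Hes1 to 0.14, Hes6 to 0.78, Hey1 to 0.44, Id1 to 0.69 and Id3 to 0.72. Relative to that median, Hes1 lay at −0.69, Hes5 at −1.37, Heyl at −1.17 and Id4 at −1.48, distances that a change of library sizes can hardly move. Over all alternatives the adjusted p of Hes5 lay between 0.0347 and 0.369, of Heyl between 0.0151 and 0.502 and of Id4 between 0.0281 and 0.282 (edgeR, limma or DESeq2, Benjamini-Hochberg). Of 131 member values under alternatives, 101 kept their direction and their side of an adjusted p of 0.1, 7 lost it (all Id4), 18 gained it and 5 changed direction.

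With a replicate block no member was called lower (0) or higher (0), and Hes5 (adjusted p = 0.0476) and Id2 (0.0473) passed on the adjusted p alone beside Id4 (0.0350). The replicate numbers are not said to pair embryos. Same-numbered libraries had correlated deviations of 0.0284, −0.0335 and 0.293, and not every library correlated best with its own number. The deficient libraries are numbered differently in the deposited counts. By that numbering, control replicate 2 with deficient replicate 1 had 0.261, and control replicate 3 with deficient replicate 2 had 0.000418. These correlations cannot decide whether embryos were paired. Over the whole table, 689 genes were called, against 1164 with the block, 1278 with quality weights, 8100 with the marker scaling and 0 to 1245 with a library left out. At 5 to 43 counts per library for the 6 low members, depth limits what could be detected for them.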
